A study of Mus musculus with 24 samples.

Results

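Transcripts of the insulin-like growth factor (IGF) system were followed over 5 groups of mice, from the ligand Igf1 through its receptors Igf1r and Igf2r to the binding proteins Igfbp2, Igfbp3, Igfbp4, Igfbp5, Igfbp6 and Igfbp7. These 9 genes were chosen by their symbols from a table of 36333 genes, and the list was drawn up with their levels across the 5 groups already known. All 9 reached the minimum of 0.5 TPM, averaged across 24 libraries, and so did 17267 genes in all. TPM are transcript abundances scaled by gene length and to the same library total, so that levels of different genes can be set side by side. Since the choice of the list used the levels that are compared, every call on a member is given as a description and not as independent evidence.

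Male mice with the strain label C57BL6N, aged 12 to 16 weeks, were examined at day 5 after a controlled cortical impact, a model of traumatic brain injury (TBI), or after sham surgery. Per the study's methods, sham mice had neither craniotomy nor impact, so that TBI against sham includes both. The methods also name another strain, C57BL/6JRj, and a narrower age range than the labels. Of the mice with TBI, 5 received vehicle, 5 received PLX3397, an inhibitor of the receptor CSF1R, at 290 mg/kg of food, 5 received Anakinra, an antagonist at the interleukin-1 receptor IL1R1, at 100 mg/kg subcutaneously, and 5 received PLX3397+Anakinra at these doses. The 4 sham mice received vehicle, and so no group received a drug without TBI. Polyadenylated RNA of the tissue in and around the lesion was sequenced, with 1 library per mouse, so that p-values measure the spread between mice. The study's supplement describes shared cages for its mice. The sample labels do not name cages, so the fit treats cage mates as independent mice.

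IGF1 is a secreted growth factor that acts through IGF1R, a receptor tyrosine kinase that signals through PI3K and AKT towards cell survival, growth and protein synthesis. The IGF binding proteins hold IGF1 and IGF2 in the extracellular space with high affinity, and depending on the protein and on the proteases around it they keep the ligand from its receptor or serve as its reservoir. In the brain IGF1 is made by neurons, glia and vascular cells, and after injury microglia and macrophages are a known source.

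IGFBP2 to IGFBP5 share a cluster of cysteines near the start of the protein, in the domain that contributes to IGF binding. The loci, in GRCm38 with GENCODE vM21, are chr10:87858265-87937042 for Igf1, chr7:67952827-68233668 for Igf1r and chr17:12682406-12769664 for Igf2r. The bases that code for the cysteine cluster are shown where the search found it, together with the corresponding stretch of Igfbp6. Capitals mark the cysteine codons, coordinates are those of GRCm38, and every stretch is coding exon sequence of GENCODE vM21.
Igfbp2 (chr1:72824778-72824801, plus strand): ggcTGCggcTGCTGCtccgtgTGC
Igfbp3 (chr11:7213566-7213589, minus strand): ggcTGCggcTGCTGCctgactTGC
Igfbp4 (chr11:99041650-99041673, plus strand): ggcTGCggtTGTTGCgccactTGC
Igfbp5 (chr1:72873966-72873989, minus strand): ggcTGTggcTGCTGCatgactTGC
Igfbp6 (chr15:102144716-102144739, plus strand): ggcTGTacagaagccggaggcTGT
The order glycine, cysteine, glycine, cysteine, cysteine, any pair of residues, cysteine was found in 4 of the 6 binding proteins, namely Igfbp2, Igfbp3, Igfbp4 and Igfbp5. In Igfbp6 the corresponding stretch keeps the outer cysteines only. In Igfbp7, a distant relative with low affinity for IGFs, this exact order was not found. The search asked for every named residue, so a cysteine cluster that differs in a glycine would be missed. Igfbp2 and Igfbp5 are neighbours on chromosome 1, with 5457 bases between them and opposite strands.

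Promoters are shown for the 4 members called in a drug group against vehicle, Igf1, Igfbp4, Igfbp5 and Igfbp6. Each window runs from 250 bases before to 50 bases after the start site in RefSeq (GRCm38.p6), and it was searched on both strands for TATAAA, the core of the TATA box, and for GAGGAA, a core bound by the myeloid factor PU.1. Capitals mark the matches, and a match on the other strand appears as TTTATA or TTCCTC.
Igf1 (chr10:87860861-87861160, plus strand): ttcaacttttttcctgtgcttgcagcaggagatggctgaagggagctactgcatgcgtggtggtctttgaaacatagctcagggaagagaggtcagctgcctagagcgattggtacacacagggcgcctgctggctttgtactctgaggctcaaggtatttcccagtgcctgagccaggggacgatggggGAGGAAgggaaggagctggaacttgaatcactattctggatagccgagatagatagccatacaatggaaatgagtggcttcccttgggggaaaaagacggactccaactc
Igfbp4 (chr11:99040994-99041293, plus strand): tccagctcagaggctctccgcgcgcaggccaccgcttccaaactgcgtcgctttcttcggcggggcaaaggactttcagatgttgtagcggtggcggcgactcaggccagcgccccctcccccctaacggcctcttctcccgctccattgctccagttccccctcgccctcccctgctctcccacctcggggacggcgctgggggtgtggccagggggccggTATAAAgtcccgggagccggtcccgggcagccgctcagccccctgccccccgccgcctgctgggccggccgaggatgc
Igfbp5 (chr1:72874816-72875115, minus strand): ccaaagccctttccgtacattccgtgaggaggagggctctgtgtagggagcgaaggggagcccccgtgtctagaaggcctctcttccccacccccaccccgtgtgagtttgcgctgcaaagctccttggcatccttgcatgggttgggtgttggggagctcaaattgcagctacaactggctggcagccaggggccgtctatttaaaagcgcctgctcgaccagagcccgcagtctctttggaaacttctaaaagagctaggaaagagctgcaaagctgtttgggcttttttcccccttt
Igfbp6 (chr15:102143936-102144235, plus strand): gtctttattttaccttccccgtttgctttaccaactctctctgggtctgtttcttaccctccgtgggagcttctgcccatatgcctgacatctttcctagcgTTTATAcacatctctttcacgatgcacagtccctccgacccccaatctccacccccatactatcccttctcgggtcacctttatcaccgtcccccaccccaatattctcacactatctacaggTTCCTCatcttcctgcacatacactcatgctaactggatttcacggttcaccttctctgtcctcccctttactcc
Igf1 held 1 GAGGAA and no TATAAA, Igfbp4 held 1 TATAAA and no GAGGAA, Igfbp6 held 1 of each, and Igfbp5 held neither. The Igf1 window lies inside its locus, past the GENCODE start at 87858265, so the bases at that start were not searched. The Igfbp6 window ends at 102144235, before the GENCODE start of its locus at 102144362. Of 32851 promoter windows of this length, 13.62% held TATAAA and 28.28% held GAGGAA. The letters of these motifs cannot overlap each other, and a match describes the letters only.

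The deposited values carry no read counts, so the depth of the libraries is unknown, and between 22160 and 23249 genes per library were above 0. Each library correlated with the others of its group at a mean r of 0.990 to 0.995. The labels name cortex, whereas the methods of the study describe a quadrant that also holds striatum, hippocampus and thalamus. Striatal markers (4 genes, summed level 785 to 1354 TPM), thalamic markers (3 genes, 101 to 159 TPM) and choroid plexus markers (5 genes, 2654 to 4995 TPM) were present in every library, and the neuronal markers (6 genes) summed to between 3139 and 5637 TPM. No marker on these lists was at 0 throughout. Among the vehicle mice, J17B and J20B stood apart in the 8 markers of fibroblasts and meninges, which summed to 192 and 253 TPM against 792, 966 and 987 TPM in the other 3. The animal codes of the vehicle mice are also the only ones that end in the letter B, whose meaning is not given in the sources used here. If it marks a batch, that batch and the vehicle-treated TBI group cannot be told apart. This holds for TBI against sham, whose mice have no such letter, and for each drug group against vehicle.

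**Figure D1:**
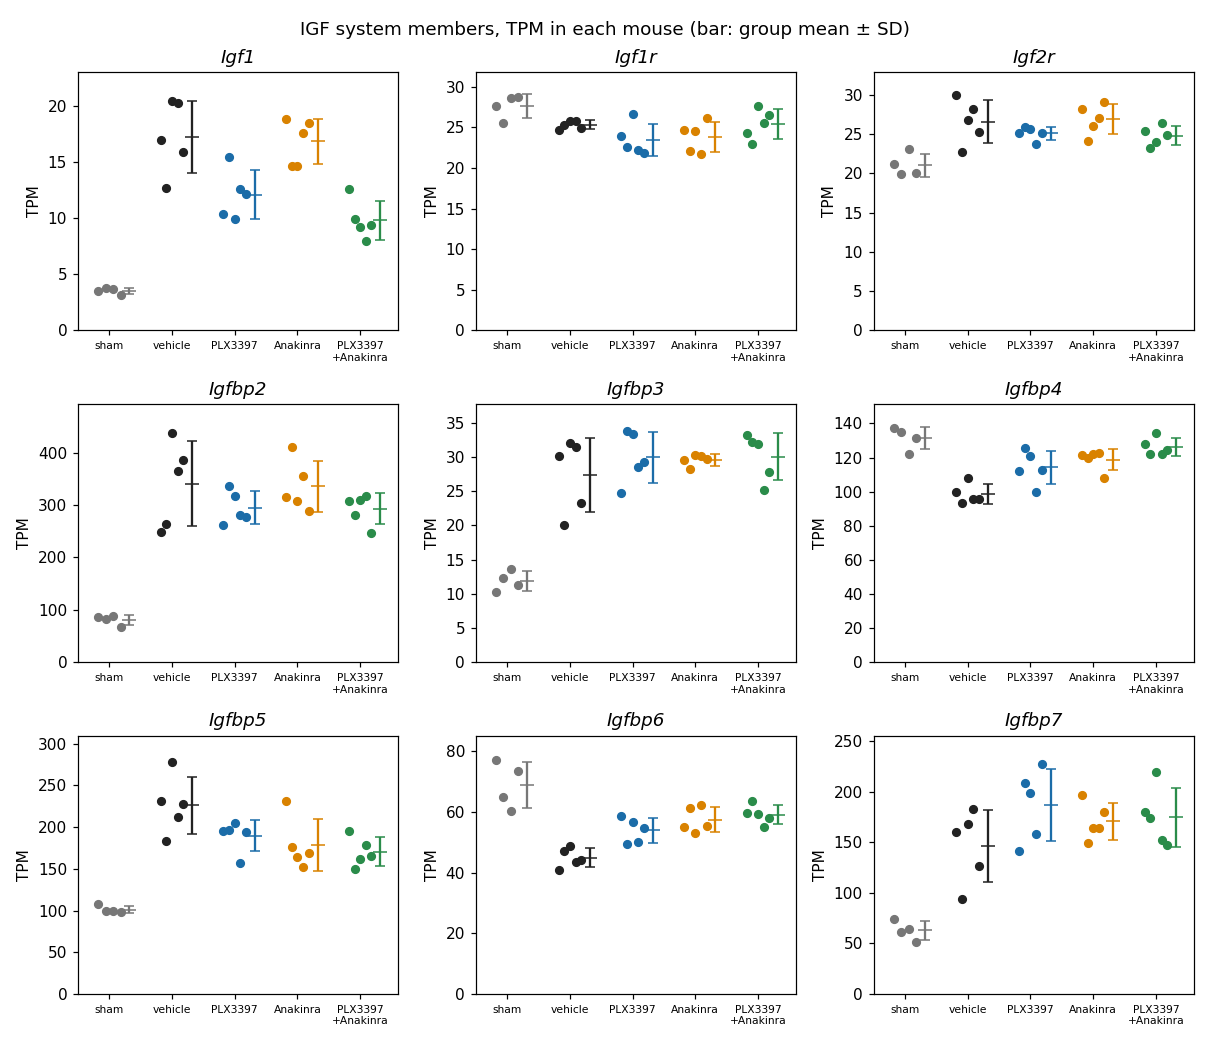
Each panel plots the TPM of 1 member in every mouse (points) by group, with the group mean ± SD beside the points (5 mice per TBI group, 4 sham mice). Igf1 and Igfbp2 were highest in relation to sham, at 17.3 and 340.5 TPM with vehicle against 3.52 and 81.1 TPM in sham, and Igfbp4 and Igfbp6 were lowest with vehicle.

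Between vehicle-treated TBI and sham mice 8 of the 9 transcripts differed in limma at an adjusted p below 0.05. Igf1, Igf2r, Igfbp2, Igfbp3, Igfbp5 and Igfbp7 rose and Igfbp4 and Igfbp6 fell, whereas Igf1r did not pass the test. In the same comparison 54.3% of all genes tested were called, 26.6% as higher and 27.7% as lower. The share of all genes whose groups do not overlap is not given for this or any later comparison. Statements on overlap therefore describe the values of a gene only. The median log2 fold change of the members was 1.13, against -0.01 over all genes tested.

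Igf1, the ligand, was at 3.19, 3.51, 3.65 and 3.75 TPM in the sham mice and at 12.7, 15.9, 17.01, 20.3 and 20.4 TPM with vehicle. All vehicle mice lay above all sham mice. The difference on the log2(TPM + 1) scale, used for every fold change here, was 2.00 (SE 0.13, adjusted p = 2.8e-12), and the ratio of the mean TPM was 4.90. Of the 9 transcripts Igf1 was the least abundant in every group.

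Igf1r, the receptor for IGF1, was at 25.5, 27.7, 28.6 and 28.7 TPM in sham and at 24.6, 24.9, 25.3, 25.8 and 25.8 TPM with vehicle. The groups overlapped, and the log2 difference was -0.12 (95% interval -0.25 to 0.01, limma adjusted p = 0.109). Igf2r, which takes up IGF2 and sorts lysosomal enzymes as the mannose-6-phosphate receptor, was at 19.9, 20.04, 21.2 and 23.1 TPM in sham and at 22.7, 25.3, 26.8, 28.2 and 30.0 TPM with vehicle. It rose by a log2 fold change of 0.32 (SE 0.07, limma adjusted p = 0.00021), although the lowest vehicle mouse, J17B, lay below the highest sham mouse.

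Igfbp2, an abundant binding protein of glia, choroid plexus and meninges, was at 66.6, 83.1, 86.9 and 88.0 TPM in sham and at 249, 265, 365, 385 and 439 TPM with vehicle. Its log2 fold change was 2.03 (SE 0.14, limma adjusted p = 4.4e-12), and the groups did not overlap. Igfbp2 was the third most abundant of the 9 members in sham and the most abundant in each TBI group.

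Igfbp3, the main IGF carrier in blood, was at 10.2, 11.3, 12.2 and 13.6 TPM in sham and at 19.99, 23.2, 30.1, 31.4 and 32.0 TPM with vehicle, a log2 fold change of 1.13 (SE 0.12, limma adjusted p = 9.2e-09). Igfbp7, a vascular and matrix-bound protein, was at 51.7, 61.3, 64.3 and 74.6 TPM in sham and at 93.6, 127, 160, 168 and 183 TPM with vehicle, a log2 fold change of 1.17 (SE 0.16, limma adjusted p = 1.1e-06). For Igfbp3 and Igfbp7 alike the lowest vehicle values came from J17B and J20B, the mice with few fibroblast transcripts, and without these mice the log2 fold changes were 1.33 and 1.43. Igfbp5, which binds to the extracellular matrix, was at 98.2, 99.4, 99.6 and 108 TPM in sham and at 183, 212, 227, 231 and 278 TPM with vehicle, a log2 fold change of 1.14 (SE 0.11, limma adjusted p = 2.2e-09). In none of these 3 genes did the vehicle mice overlap with sham.

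Igfbp4 and Igfbp6 moved the other way. Igfbp4, which holds IGFs back until the protease PAPP-A cleaves it, was at 122, 131, 135 and 137 TPM in sham and at 93.3, 95.5, 95.6, 100.1 and 108 TPM with vehicle (log2 fold change -0.41, SE 0.06, limma adjusted p = 1.1e-06). Igfbp6, which prefers IGF2 to IGF1, was at 60.3, 64.8, 73.4 and 77.0 TPM in sham and at 40.9, 43.6, 44.0, 47.2 and 48.6 TPM with vehicle (log2 fold change -0.60, SE 0.07, limma adjusted p = 6.7e-08). Every vehicle mouse was below every sham mouse for these genes. Igfbp4 was the most abundant member in sham and the fourth in each TBI group.

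Markers of several cell types moved with these transcripts in the same comparison. All 8 microglia markers rose (median log2 fold change 1.49) and their summed level went from 278 to 304 TPM in sham to 1189 to 1549 TPM with vehicle. All 8 markers of activated phagocytes rose, as did 6 of 8 markers of border and infiltrating macrophages, while 1 of the latter fell. Of the fibroblast and meninges markers 7 of 8 rose, of the astrocyte markers 5 of 6, of the endothelial markers 4 of 6, of the mural cell markers 3 of 6, of the oligodendrocyte markers 4 of 5, of the choroid plexus markers 1 of 5 and of the striatal markers 0 of 4. Neuronal markers fell in 5 of 6 cases and thalamic markers in 2 of 3. Over all genes tested 26.6% were called higher and 27.7% lower. The part of these shifts in the levels of the members was not tested, and in bulk tissue fewer cells of a type and less RNA per cell cannot be told apart.

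**Figure D2:**
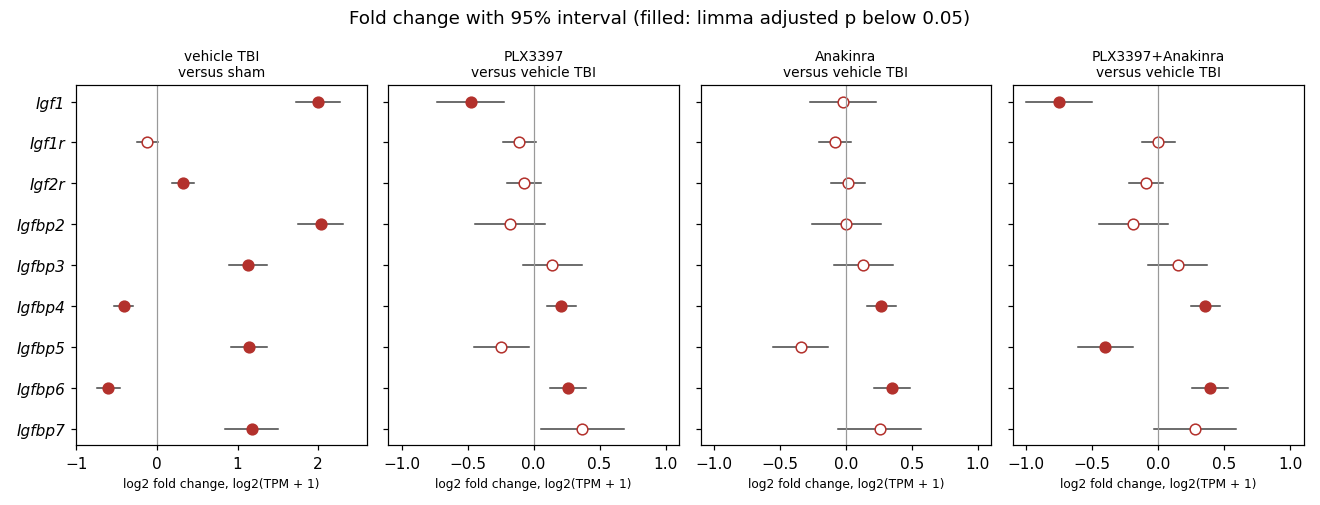
Points show the log2 fold change of each member on the log2(TPM + 1) scale and lines its 95% interval, in 4 panels for TBI against sham and for each drug group against vehicle. Filled points had a limma adjusted p below 0.05, which held for 8 members after TBI, 3 with PLX3397, 2 with Anakinra and 4 with PLX3397+Anakinra, and Igfbp4 and Igfbp6 were filled in all 4 panels.

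The 3 drug groups were next compared with vehicle, which asks how far each treatment altered the transcripts at day 5. These comparisons share the vehicle mice with each other and with TBI against sham, so that none of these results is independent of the others.

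With PLX3397, Igf1 fell and Igfbp4 and Igfbp6 rose, which makes 3 of 9 members called beside 9.89% of all genes tested. The median log2 fold change of the members was -0.07, against 0.01 over all genes. Igf1 was at 9.97, 10.3, 12.2, 12.6 and 15.5 TPM, of which only the last lay above the lowest vehicle mouse. The log2 fold change was -0.48 (SE 0.12, limma adjusted p = 0.0124), and the mean of 12.1 TPM kept 62.4% of the increase that vehicle mice had over sham. Without J17B and J20B the log2 fold change was -0.64 (limma adjusted p = 0.00126).

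Igfbp4 was at 100.1, 112, 113, 121 and 126 TPM with PLX3397, a log2 fold change of 0.21 (SE 0.05, limma adjusted p = 0.0114). Its lowest mouse lay within the vehicle range, and the adjusted p was 0.0684 when only the compared groups were fitted and 0.0806 without J17B and J20B. Igfbp6 was at 49.3, 50.1, 54.8, 56.8 and 58.6 TPM, and every value was above those of vehicle (log2 fold change 0.26, SE 0.07, limma adjusted p = 0.0108). In the fit of the compared groups alone, Igfbp6 was the 1 member called, and Igf1 had a limma adjusted p of 0.059.

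Igfbp5 and Igfbp7 did not pass the test with PLX3397. Igfbp5 was at 157, 194, 196, 196 and 205 TPM (log2 difference -0.25, 95% interval -0.46 to -0.04, limma adjusted p = 0.133). Without J17B the difference was -0.32 and the limma adjusted p 0.0343. Igfbp7 was at 142, 158, 198, 208 and 228 TPM, with a log2 difference of 0.37 (95% interval 0.06 to 0.68, limma adjusted p = 0.137) that shrank to 0.11 without J17B and J20B.

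With Anakinra, 2 of 9 members were called, Igfbp4 and Igfbp6, and both rose. Over all genes tested 0.116% were called, or 20 genes. Igfbp4 was at 108, 120, 122, 122 and 122 TPM, and the lowest of these lay just above the highest vehicle mouse (log2 fold change 0.27, SE 0.05, limma adjusted p = 0.046). Igfbp6 was at 52.9, 55.2, 55.4, 61.4 and 62.2 TPM, again without overlap (log2 fold change 0.35, SE 0.07, limma adjusted p = 0.0351). Both calls lay close to the threshold. They were lost when only the compared groups were fitted (limma adjusted p = 0.132 for Igfbp4 and 0.1 for Igfbp6), and also without J17B and J20B (0.181 and 0.0732).

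Igf1 did not pass the test with Anakinra. It was at 14.7, 14.7, 17.6, 18.5 and 18.8 TPM, within the vehicle range, and the log2 difference was -0.02 (95% interval -0.28 to 0.23, limma adjusted p = 0.963). Igfbp5 was at 152, 165, 169, 176 and 231 TPM, and 4 of the 5 mice lay below the lowest vehicle mouse. Its log2 difference of -0.34 (95% interval -0.55 to -0.13) had a limma adjusted p of 0.141.

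With PLX3397+Anakinra, 4 of 9 members were called, beside 17.5% of all genes tested. Igf1 and Igfbp5 fell, and Igfbp4 and Igfbp6 rose. The median log2 fold change was 0.00 over the members and 0.01 over all genes. Igf1 was at 7.94, 9.21, 9.39, 9.93 and 12.6 TPM, and every value was below those of vehicle (log2 fold change -0.75, SE 0.12, limma adjusted p = 7.2e-05). The mean of 9.81 TPM kept 45.7% of the increase over sham, with 32.1% to 65.9% in single mice.

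Igfbp4 was at 122, 122, 125, 128 and 135 TPM with PLX3397+Anakinra, above every vehicle mouse, with 3 of the 5 mice inside the range of sham and the other two just below it (log2 fold change against vehicle 0.36, SE 0.05, limma adjusted p = 2.5e-05). Against sham the log2 difference was -0.06 (95% interval -0.18 to 0.06, limma adjusted p = 0.449). Igfbp6 was at 55.2, 57.8, 59.2, 59.7 and 63.5 TPM, above every vehicle mouse (log2 fold change 0.39, SE 0.07, limma adjusted p = 0.000105), and against sham it was lower (log2 fold change -0.21, SE 0.07, limma adjusted p = 0.0166), a call that was lost without sham mouse J07 (0.0895) or J16 (0.0654). Igfbp5 was at 150, 162, 166, 179 and 195 TPM and overlapped with vehicle in 1 mouse (log2 fold change -0.40, SE 0.10, limma adjusted p = 0.00673).

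The injury difference that remained in each group can be read from the group means. The same vehicle mice set the injury difference and the difference from each drug group. An offset of the vehicle group alone would therefore appear in both, and this was not tested. For Igfbp4 the remaining difference was 52.1% of the vehicle difference with PLX3397, 38.2% with Anakinra and 15.9% with PLX3397+Anakinra. For Igfbp6 these shares were 62.4%, 47.8% and 40.9%, and for Igfbp5 70.7%, 61.8% and 55.2%. Igfbp2 kept 82.5%, 98.2% and 81.6%, while Igfbp3 and Igfbp7 lay above the vehicle mean in all 3 drug groups, at 114% to 117% and 129.6% to 149%. Without J17B and J20B, Igfbp3 kept 91.6% to 94.2% and thus lay below the vehicle mean, and Igfbp7 kept 115% with PLX3397, 100.5% with Anakinra and 104% with PLX3397+Anakinra. Single mice spread widely around the means of all mice, for Igfbp4 with PLX3397 from 17% to 95.2%.

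Igf1r, Igf2r, Igfbp2 and Igfbp3 were not called in any drug group against vehicle. Igf1r ranged from 21.7 to 27.6 TPM over the 15 drug-treated mice, and its log2 differences from vehicle lay between -0.11 and 0.00. Igf2r ranged from 23.3 to 29.1 TPM in these mice. Igfbp2 ranged from 246 to 412 TPM, with log2 differences of -0.18 with PLX3397 (95% interval -0.44 to 0.09), 0.00 with Anakinra and -0.19 with PLX3397+Anakinra (95% interval -0.45 to 0.07). Igfbp3 ranged from 24.7 to 33.8 TPM, and its log2 differences of 0.13 to 0.15 changed sign when J17B and J20B were left out.

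Adding Anakinra to PLX3397 called 0 of 9 members in limma, where 0.151% of all genes were called. At an unadjusted p below 0.05 there were 2, Igf1 (log2 difference -0.28, 95% interval -0.53 to -0.02, limma adjusted p = 0.679) and Igfbp4 (0.15, 95% interval 0.04 to 0.26, limma adjusted p = 0.503). Of all genes 1159 had an unadjusted p below 0.05 there. Adding PLX3397 to Anakinra called 1 member, Igf1, beside 12.8% of all genes. The 5 mice with PLX3397+Anakinra were below all 5 mice with Anakinra, a log2 fold change of -0.73 (SE 0.12, limma adjusted p = 0.000121). The interaction of PLX3397 and Anakinra, the difference between the effect of Anakinra with and without PLX3397, called 0 members and 0% of all genes. At an unadjusted p below 0.05 were Igf1r (0.20, limma adjusted p = 0.568) and Igfbp6 (-0.22, limma adjusted p = 0.561), 2 of the 9 members, and 1395 of all genes.

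Against sham, 9 of 9 members were called with PLX3397 (45.2% of all genes), 9 with Anakinra (54.4%) and 7 with PLX3397+Anakinra (38.8%). The call on Igfbp4 with Anakinra (log2 fold change -0.14, SE 0.06, limma adjusted p = 0.0346) was lost without the filter (0.0538), after rescaling (0.173) and without J22, J07, J08 or J16 (0.0609 to 0.106). The 2 that were not called with PLX3397+Anakinra were Igfbp4 and Igf1r. Igf1r fell against sham by a log2 fold change of -0.23 with PLX3397 (SE 0.06, limma adjusted p = 0.00435) and of -0.21 with Anakinra (SE 0.06, limma adjusted p = 0.00739), but the groups overlapped with sham in each case. With PLX3397+Anakinra its log2 difference was -0.12 (95% interval -0.25 to 0.01, limma adjusted p = 0.139). Igf1 remained 3.44 times the sham mean with PLX3397, 4.78 times with Anakinra and 2.78 times with PLX3397+Anakinra.

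Markers of microglia moved with Igf1 across the drug groups. The 8 microglia markers, among them P2ry12, Tmem119 and Cx3cr1, all fell with PLX3397 (median log2 fold change -1.33) and with PLX3397+Anakinra (-1.43), and 0 of 8 were called with Anakinra. Their summed level was 1189 to 1549 TPM with vehicle, 523 to 798 TPM with PLX3397, 1277 to 1449 TPM with Anakinra and 464 to 635 TPM with PLX3397+Anakinra. Markers of border and infiltrating macrophages fell in 7 of 8 cases with PLX3397 and in 7 of 8 with PLX3397+Anakinra, and those of activated phagocytes in 7 and 8 of 8. With Anakinra 0 of 8 were called on either list.

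The level of Igf1 was also set against this sum. Igf1 as a percentage of the summed microglia markers was 1.07 to 1.29 in sham, 1.07 to 1.34 with vehicle and 1.12 to 1.41 with Anakinra. With PLX3397 it was 1.91 to 2.09 and with PLX3397+Anakinra 1.49 to 1.98. The mice with PLX3397 in their food, alone or with Anakinra, all lay above all other mice in this ratio, which is a description of these libraries without a test. The part of microglia in the level of Igf1 was not tested.

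**Figure D3:**
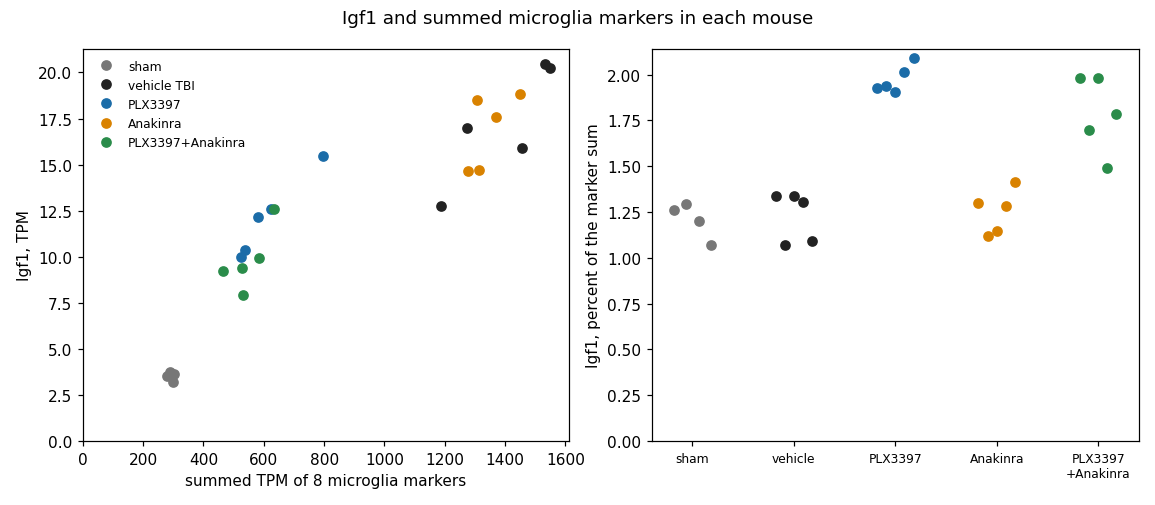
Left, Igf1 TPM against the summed TPM of 8 microglia markers in each of the 24 mice, and right, Igf1 as a percentage of that sum by group. Mice with PLX3397 or PLX3397+Anakinra sit at marker sums of 464 to 798 TPM and at 1.49% to 2.09%, all other mice at 1.07% to 1.41%.

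Markers of fibroblasts and meninges had a higher median sum in each drug group than with vehicle, and only the range with PLX3397 overlapped with vehicle. Their summed level was 192 to 987 TPM with vehicle, 710 to 1630 TPM with PLX3397, 1125 to 1947 TPM with Anakinra and 1011 to 1779 TPM with PLX3397+Anakinra. With PLX3397 and with PLX3397+Anakinra 5 of these 8 markers rose (median log2 fold change 1.114 and 1.144). With Anakinra 0 were called, at a similar median log2 difference of 1.102. Mural cell markers rose in 2 of 6 cases with PLX3397, 0 with Anakinra and 1 with PLX3397+Anakinra, and 0 of 6 endothelial markers were called in each. Neuronal markers rose in 1 of 6 cases with PLX3397 and 4 with PLX3397+Anakinra, with 0 called under Anakinra. Of 6 astrocyte markers 1 rose with PLX3397, and 1 rose and 1 fell with PLX3397+Anakinra. Among 5 oligodendrocyte markers 1 rose with PLX3397. Over all genes tested 9.89% were called with PLX3397, 0.116% with Anakinra and 17.5% with PLX3397+Anakinra. On lists this short, a single marker called with PLX3397 or PLX3397+Anakinra is near these shares. No marker of choroid plexus, thalamus or striatum was called in a drug group against vehicle. The part of these cell types in the levels of Igfbp3, Igfbp4, Igfbp6 and Igfbp7 was not tested.

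Over the 6 binding proteins, the summed transcript level was higher with vehicle than in sham in every mouse, and its make-up differed. These sums are descriptions without a test. The summed level was 457.5 ± 26.1 TPM (SD, n = 4) in sham and 883.5 ± 138 TPM (SD, n = 5) with vehicle, with 432 to 494 TPM against 702 to 1072 TPM in single mice. Igfbp4 held 28.8% of the sum in sham and 11.3% with vehicle, whereas Igfbp2 held 17.7% in sham and 38.3% with vehicle. Igfbp5 held 22.1% and 25.7%, Igfbp7 13.7% and 16.5%, Igfbp6 15.1% and 5.18%, and Igfbp3 2.599% and 3.1%.

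In the drug groups the sum was 869 ± 80.2 TPM for PLX3397 (n = 5, SD), 891 ± 55.6 TPM for Anakinra and 853 ± 60.6 TPM for PLX3397+Anakinra, and all these ranges overlapped with vehicle. Relative to Igf1 the sum stood at 122 to 141 TPM of binding proteins per TPM of Igf1 in sham and at 46.0 to 56.6 with vehicle. With Anakinra this ratio was 44.9 to 64.4, with PLX3397 it was 61.4 to 93.4 and with PLX3397+Anakinra 71.9 to 107. The PLX3397 and PLX3397+Anakinra mice lay above every vehicle mouse and below every sham mouse. This ratio leaves out Igf2, the other ligand of these proteins, which was more abundant than Igf1 in every group. The mean of Igf2 was 52.8 TPM in sham, 63.8 with vehicle, 84.7 with PLX3397, 69.6 with Anakinra and 85.8 with PLX3397+Anakinra. A ratio to both ligands was not computed, and the sum includes Igfbp7 with its low affinity for IGFs.

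**Figure D4:**
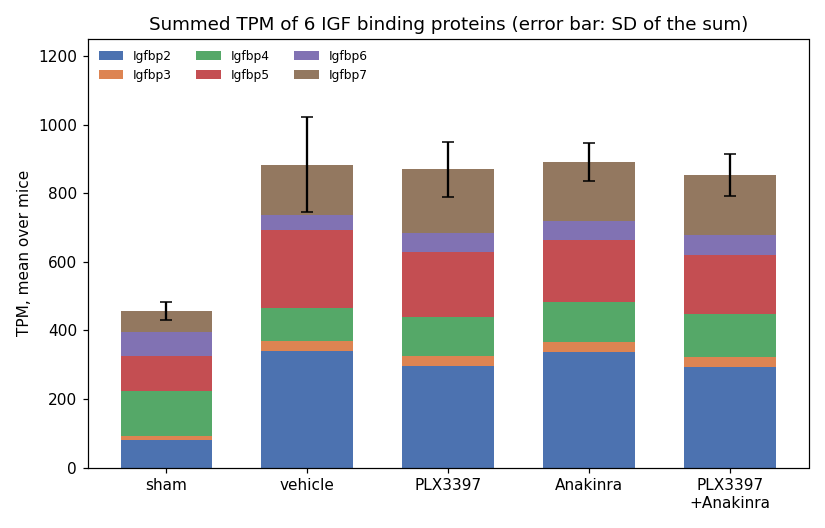
Stacked bars give the mean TPM of the 6 binding proteins by group, and the error bar is the SD of their sum over mice. The sum was 457.5 TPM in sham and 853 to 891 TPM in the TBI groups, with Igfbp4 as the largest share in sham and Igfbp2 in every TBI group.

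The other genes of the pathway were taken from a list by role, with 44 genes, of which 39 were tested (Ins1, Igfbp1, Igfals, Insrr and Igf2bp1 were too low). After TBI 12 rose and 7 fell, so that 48.7% were called, beside 54.3% of all genes. The median log2 fold change was 0.12 on the list and -0.01 over all genes.

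Among the ligands, Igf2 did not pass the test after TBI, at a mean of 63.8 TPM with vehicle against 52.8 TPM in sham. The binding protein relative Igfbpl1 rose, from 2.87 to 4.73 TPM (log2 fold change 0.57, SE 0.13, limma adjusted p = 0.00086). Of the receptors for binding proteins, Cd93, an endothelial and myeloid receptor that binds IGFBP7, rose from 3.34 to 16.3 TPM (log2 fold change 1.96, SE 0.16, limma adjusted p = 1.1e-10), and Tmem219, a receptor for IGFBP3, rose from 16.9 to 24.2 TPM. The protease Htra1 rose from 186 to 243 TPM, and Pappa, the protease of IGFBP4, rose from 0.332 to 0.675 TPM, a level close to the filter, with overlapping groups. M6pr, the smaller mannose-6-phosphate receptor, rose from 125 to 159 TPM.

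Below the receptors, the adaptor Shc1 rose from 10.48 to 21.2 TPM (log2 fold change 0.94, SE 0.11, limma adjusted p = 4.4e-08), while Grb2 fell by 0.11 on the log2 scale. Of 11 PI3K and AKT pathway genes 5 fell and 2 rose. Foxo3 fell from 55.4 to 42.9 TPM and Mtor from 59.4 to 46.7 TPM, whereas Akt2 rose from 54.97 to 68.5 TPM. The mRNA-binding protein Igf2bp2 rose from 0.958 to 2.81 TPM. Of the growth hormone axis, Stat5a rose from 1.64 to 3.73 TPM and Ghr from 7.60 to 9.61 TPM, and Socs2, an inhibitor of that axis, fell from 6.29 to 5.38 TPM.

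With PLX3397 2 of the 39 pathway genes rose and 0 fell, so that 5.13% were called, beside 9.89% of all genes. Igf2, the second IGF ligand, was at 66.6, 81.6, 83.2, 94.1 and 98.3 TPM against 56.0, 57.9, 61.5, 66.6 and 77.0 TPM with vehicle (log2 fold change 0.40, SE 0.12, limma adjusted p = 0.0355), and the groups overlapped. J17B and J20B were the lowest vehicle mice for Igf2 as well, and without them the log2 difference was 0.30 (limma adjusted p = 0.191). The Igf2 call was also lost without the filter (0.0696), after rescaling (0.0518) and in 7 of 10 fits that left out 1 mouse (up to 0.0939). Grb10, an adaptor that restrains IGF1R signalling, was at 41.9, 47.9, 48.2, 48.5 and 54.5 TPM against 34.9, 36.7, 37.6, 40.5 and 43.4 TPM (log2 fold change 0.31, SE 0.08, limma adjusted p = 0.0087), and without J17B and J20B its log2 difference was 0.24 (limma adjusted p = 0.0751). Cd93 had a log2 difference of -0.38 (limma adjusted p = 0.108) in all mice and fell by 0.62 without J17B and J20B (limma adjusted p = 0.00312). With Anakinra 0 of 39 were called in limma, beside 0.116% of all genes. At an unadjusted p below 0.05 there were 3, namely Grb2, Grb10 and Foxo1, beside 2148 of all 17267 genes.

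With PLX3397+Anakinra 3 pathway genes rose and 2 fell, so that 12.8% were called, beside 17.5% of all genes. Igf2 was at 62.0, 81.4, 89.9, 91.0 and 104 TPM (log2 fold change 0.41, SE 0.12, limma adjusted p = 0.0203). Without J17B and J20B the log2 difference was 0.31 (limma adjusted p = 0.138). The Igf2 call was also lost without J20B, J03 or J09 alone (0.0529 to 0.0642). Grb10 rose by 0.35 (SE 0.08, limma adjusted p = 0.002). Cd93 was at 8.53, 8.72, 9.69, 10.04 and 10.3 TPM against 10.4, 14, 17.7, 19.6 and 19.6 TPM with vehicle, and the groups did not overlap (log2 fold change -0.69, SE 0.15, limma adjusted p = 0.00148). M6pr fell by a log2 fold change of -0.19 (SE 0.05, limma adjusted p = 0.00542).

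For the remaining comparisons, PLX3397+Anakinra against PLX3397 called 0 of 39 pathway genes in limma, beside 0.151% of all genes. At an unadjusted p below 0.05 there were 2 pathway genes, beside 1159 of all genes. Against Anakinra 1 rose and 3 fell, so that 10.3% were called, beside 12.8% of all genes. Those that fell were M6pr, Cd93 and Tmem219. The interaction called 0 of 39 and 0% of all genes (3 and 1395 at an unadjusted p below 0.05). Against sham 13 rose and 8 fell with PLX3397 (53.8%, beside 45.2% of all genes). With Anakinra 14 rose and 10 fell (61.5% beside 54.4%), and with PLX3397+Anakinra 14 rose and 7 fell (53.8% beside 38.8%).

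**Figure D5:**
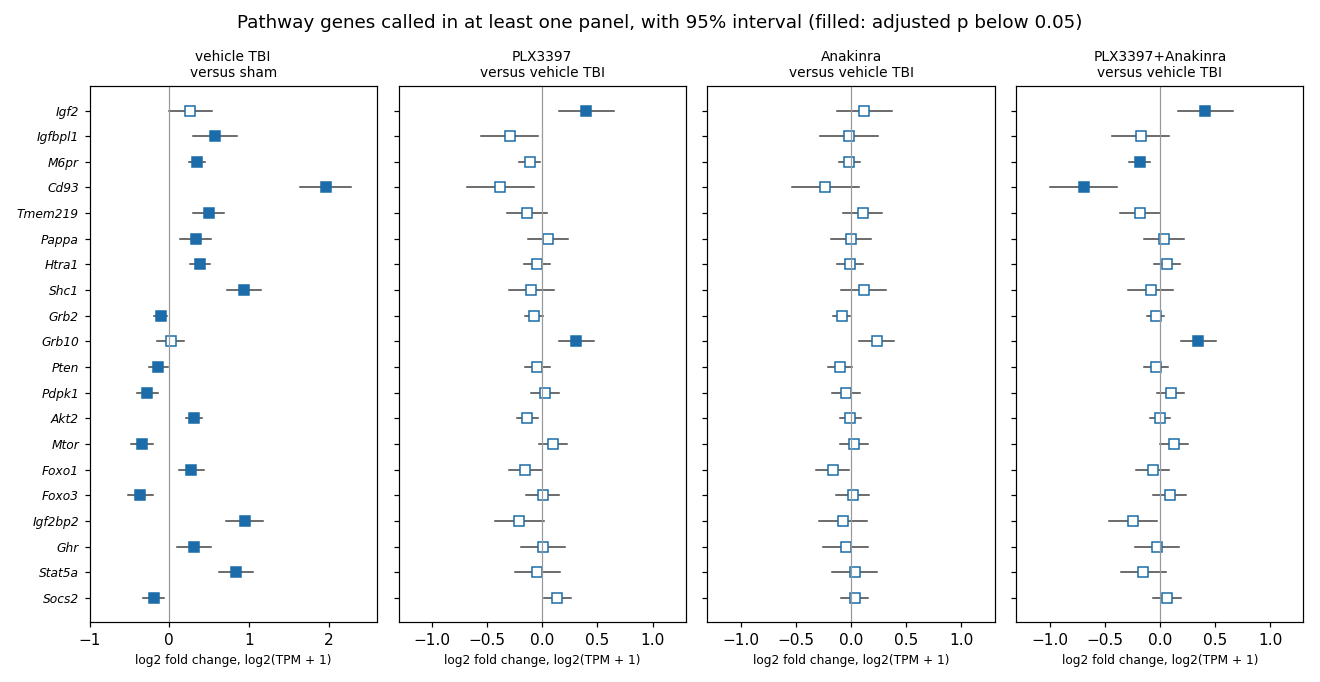
Squares show the log2 fold change of 20 pathway genes called in at least 1 of the 4 comparisons, with 95% intervals on the log2(TPM + 1) scale, and filled squares had a limma adjusted p below 0.05. The panel of TBI against sham holds 18 filled squares, PLX3397 2, Anakinra 0 and PLX3397+Anakinra 4.

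Over the 20 libraries with TBI, the genes most like each member were sought among the 17267 genes by Pearson's r of log2(TPM + 1). The libraries share group and lesion, and r within groups, after the group means were removed, is given beside it as a description. Igf1 was closest to Cd300c2 (r = 0.97, 0.93 within groups), Ifnar2 (0.96 and 0.88) and Creg1 (0.96 and 0.85). Igfbp5 was closest to Gltp (0.92 and 0.85), Col11a2 (0.88 and 0.90) and Ddr1 (0.86 and 0.79).

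Igfbp7 was closest to Cpxm1 (r = 0.90, 0.89 within groups), Scarf2 (0.89 and 0.93) and Aebp1 (0.89 and 0.87). Igfbp4 was closest to Six2 (0.85 and 0.67), Foxc2 (0.83 and 0.49) and Col6a2 (0.82 and 0.60). Igfbp6 was closest to Ak1 (0.86 and 0.50), Plcd3 (0.81 and 0.33) and Igfbp4 (0.78 and 0.15). For each of these genes paired with Igfbp4 or Igfbp6, r within groups was the lower value. Igfbp3 and Igfbp7 had an r of 0.85 with each other and of 0.84 within groups.

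Some loci overlap other genes, and whether the counting used strand is not given in the sources used here. Polr2b lies on the opposite strand to Igfbp7 and shares 85 of the 1209 exon bases of Igfbp7, at 51.4 to 64.0 TPM. The antisense genes Igf1os within Igf1 (at most 0.20 TPM) and Airn within Igf2r (0.17 to 1.47 TPM) were low in every library.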

How the data were processed

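Brain tissue of 24 male mice was examined in 5 groups, taken from the treatment in the sample labels, with 1 library per mouse and none left out. Mapping against mm10 was done by the authors with CLC Genomics Workbench 21.0.5, and gene expression was deposited as TPM, whose library sums are 1000000. The values scale with gene length, since 6691 genes between 0 and 1 TPM in vehicle mouse J01B took 5504 distinct values. The other deposited tables, which hold the same TPM rounded and p-values and F values of the authors' own tests, were not used. Read counts were not analysed here, so that depth and counting error are unknown, and the precision rests on the spread over 5 mice, or 4 in sham.

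Genes that averaged 0.5 TPM or more were fitted as log2(TPM + 1) in limma 3.58.1 (R 4.3.3), with a coefficient for each group over the 24 libraries together and a variance trend. Adjusted p-values are Benjamini-Hochberg values over 17267 genes, and calls were made at 0.05. The fit was tested on simulated data. Sums and ranges were computed with pandas 2.3.3 (Python 3.11.15). Members, gene lists and tests were chosen with earlier results of these data known. Named are all members, the called pathway genes with the smallest adjusted p (up to 4 per role and comparison) and the 3 genes most like Igf1, Igfbp4, Igfbp5, Igfbp6 and Igfbp7. A pathway gene that the counts include is not reported here by name or in the plot. Beyond this rule, the Igfbp3 and Igfbp7 pair, pathway genes at an unadjusted p, Gh, Insr, Lrp1 and overlapping genes were chosen after their values were seen. Genes and sequences come from GENCODE vM21 (GRCm38) and RefSeq (GRCm38.p6). Other settings tried were a pseudocount of 0.1, omission of the filter, a filter at a mean of 5 TPM, rescaling by the median ratio, only the compared groups, a replicate block, leaving out each mouse in turn and, chosen after seeing the data, leaving out vehicle mice J17B and J20B together.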

Additional observations from a re-analysis of the deposited data

Results flagged for a closer look

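In 3 of the 45 sets of a member in a group, 1 mouse stood far from the others, where chance gives about 1 in 20. Igfbp4 with Anakinra was 108.1 TPM in mouse J22, the lowest of its group, and the gap to the next mouse was 0.819 of the whole range. Igfbp5 was 107.8 TPM in sham mouse J07, the highest of its group (0.849 of the range). Igfbp5 with PLX3397 was 156.9 TPM in mouse J19, the lowest of its group (0.772 of the range). Without J22 the log2 difference of Igfbp4 between Anakinra and sham was -0.11, with a limma adjusted p of 0.106.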

How the results depend on the processing

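After TBI the 8 calls on members held under every alternative, the mice left out in turn included. With PLX3397 against vehicle, 1 member was called with only the compared groups fitted (Igfbp6). The number of pathway genes there was 1 without the filter, 1 after rescaling and 0 with the replicate block (Igf2 at a limma adjusted p of 0.105 and Grb10 at 0.246), and 1 to 3 with a mouse left out. Grb10 was the call that held without the filter (0.0172) and after rescaling (0.0079). With Anakinra against vehicle, 0 members were called with a pseudocount of 0.1, 0 without the filter, 1 after rescaling, 0 with only the compared groups, 0 without J17B and J20B, and 0 to 2 with a mouse left out. Pathway genes called for PLX3397+Anakinra against Anakinra were 1 without the filter and 1 to 5 with a mouse left out. Vehicle and PLX3397 share 3 animal numbers, and in these pairs the deviations from the group means correlated at 0.17, -0.13 and -0.07. Whether the paired samples share more than a number was not tested. With the replicate block on these 3 pairs, 2 members were called (Igf1 and Igfbp5, the latter at a limma adjusted p of 0.045, while Igfbp4 was at 0.174 and Igfbp6 at 0.0595), and Igfbp3 turned to -0.029. After rescaling, the log2 difference of Igf1r for PLX3397+Anakinra against vehicle was -0.008, and for PLX3397+Anakinra against Anakinra those of Igfbp3 and Igfbp7 were -0.011 and -0.005. Without J17B and J20B, Igfbp3 turned to -0.065 with PLX3397, -0.075 with Anakinra and -0.058 with both drugs, Igf2r and Igfbp2 to -0.074 and -0.036 with Anakinra, Igf1r to -0.006 with both drugs, and the interactions of Igf2r, Igfbp2 and Igfbp3 to 0.054, 0.025 and 0.082. None of these turned differences was called before or after. Without these mice Igfbp5 with PLX3397 (limma adjusted p = 0.0497) and Igf2r with both drugs (log2 fold change -0.19, limma adjusted p = 0.039) passed the threshold. Against sham, Igfbp4 with Anakinra lost its call without the filter (limma adjusted p = 0.0538), after rescaling (0.173) and without J22, J07, J08 or J16 (0.0609 to 0.106). Igfbp6 with both drugs lost it without sham mouse J07 (0.0895) or J16 (0.0654). The cause of these changes was not tested. Against vehicle with Anakinra, Igfbp4 lost its call in 7 and Igfbp6 in 5 of 10 fits with a mouse left out (limma adjusted p up to 0.132 for each). TPM without counts cannot separate counting error from differences between mice, which bears most on low genes such as Pappa.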

Other observations

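Gh, growth hormone itself, was chosen after its values were seen. It is on the pathway list and was uneven between mice. Its level was 0.00 to 21.05 TPM in sham, 0.00 to 12.6 TPM with vehicle, 0.00 to 3.27 TPM with PLX3397, 0.59 to 2.91 TPM with Anakinra and 0.00 to 2.93 TPM with PLX3397+Anakinra. It was called lower with PLX3397 than in sham (log2 fold change -2.25, SE 0.74, limma adjusted p = 0.0149), but single mice listed at 0.00 occurred in both of these groups. Insr, the insulin receptor, had group means between 26.5 and 28.5 TPM, and Lrp1, a receptor for IGFBP3, between 155 and 177 TPM. Neither was called in any comparison with vehicle or sham.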
